A study of Mus musculus with 384 samples.

Results

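The claudins and tight junction genes examined here were Cldn3, Cldn4, Cldn6, Cldn7, Cldn9, Tjp1, Ocln, F11r and Marveld2. These 9 genes were taken by symbol from the 31617 genes with a row in the deposited table of raw counts, and each symbol matched 1 row. They were measured in mouse pluripotent stem cells by Smart-seq2, which copies full-length mRNA from a single sorted cell. Formative stem (FS) cells of the lines 5ar1 and 5ar2, labelled as the formative condition, were maintained in AloXR (A3XR in the labels), a medium with a low amount of activin, the tankyrase inhibitor XAV939 and the retinoic acid receptor inverse agonist BMS493. Epiblast stem cells (EpiSCs), labelled as the primed condition, came from line AFX6 in AFX medium (activin, Fgf2 and XAV939) and line AF32 in AF medium (activin and Fgf2 without XAV939). All lines thus received activin, and all but AF32 received XAV939. Each line gave 96 cells, and those with at least 3000000 counts were kept, which left 90 cells each of 5ar1 and 5ar2, 66 of AFX6 and 80 of AF32, with 3022666 to 6686007 counts per cell. Each EpiSC medium had 1 line, so medium, line and any plate cannot be told apart there, and the embryo or strain behind a line is not given in the labels.

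Tight junctions seal the space between neighbouring epithelial cells and hold apical and basolateral membrane apart. Claudins are membrane proteins that form the strands of the seal, occludin (Ocln) and tricellulin (Marveld2) are MARVEL-domain proteins of the same strands and of the contacts where cells meet at corners, and F11r encodes the adhesion protein JAM-A. Tjp1 encodes ZO-1, a scaffold on the cytoplasmic face that links claudins to actin. The epiblast is an epithelium, and Cldn6 and Cldn7 are well known in the early embryonic epithelium.

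The study's cells were checked against markers before the junction genes. Pou5f1 encodes the pluripotency factor Oct4, and levels are in CPM (counts per 1000000 counts of a cell). It reached 5 CPM in 88 of 90 5ar1, 89 of 90 5ar2, 65 of 66 AFX6 and 78 of 80 AF32 cells. In the same order, Sox2 did so in 62, 65, 14 and 33 cells. Nanog, which had a higher level in both EpiSC lines, did so in 55, 65, 53 and 76. Otx2, Utf1 and Dnmt3b did so in most cells of every line. Of the 4 formative genes, Fgf5 did so in 83, 89, 20 and 34 cells and Pou3f1 in 72, 67, 15 and 28. Dnmt3a and Sall2 did so in most cells of every line. Of the 6 lists of markers of other cell types, 4 had a median summed level per cell of 0 to 0.197 CPM in every line. These were the trophoblast, extraembryonic endoderm, neural and surface ectoderm lists, but single genes of them reached 5 CPM in more cells. Hand1 of the trophoblast list did so in 32 of 90 5ar1 cells (23.5 CPM in summed counts), and in 0 5ar2, 1 AFX6 and 1 AF32 cells. Dab2 of the extraembryonic endoderm list did so in 5 5ar1, 20 5ar2, 4 AFX6 and 9 AF32 cells. For Sox1 of the neural list these were 8, 18, 1 and 16 cells in the same order. The fibroblast list had medians from 0.183 in AFX6 to 6.336 in 5ar2, and the streak and endoderm list from 0.231 in AFX6 to 45.1 in 5ar1. In summed counts the streak and endoderm list of the FS lines was mostly Eomes. Eomes had 61.3 of 61.5 CPM in 5ar1 and 48.2 of 52.2 in 5ar2. In 5ar1 T, Mixl1, Gsc, Foxa2 and Cxcr4 had at most 0.144 CPM each. In AF32 T had 39.1 CPM, with 2 cells at 5 CPM or more, and Foxa2 7.91 CPM, with 13 such cells. In AFX6 0 of 6 trophoblast, 0 of 5 extraembryonic endoderm, 0 of 4 neural and 0 of 3 surface ectoderm genes with a row had 5 CPM of summed counts. The extraembryonic endoderm factors Gata4, Gata6 and Sox17 and the surface ectoderm keratin Krt5 were listed at 0 counts there. Of the trophoblast genes, Elf5 was listed at 0 in AFX6 and had at most 0.005 CPM in any line, whereas Tfap2c (2.086 CPM, 6 cells at 5 CPM or more), Gata3 (1.395 CPM) and Plac1 (0.758 CPM) were highest in AFX6. Krt7 had 1.657 CPM in AFX6 and 6.015 in AF32, and the part of such cells in the levels of the junction genes was not tested.

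The genes lie at 6 places in the genome, in 3 cases as neighbours (GRCm38, GENCODE M21). Cldn4 (chr5:134945119-134946934, minus strand) and Cldn3 (chr5:134986214-134987472, plus strand) are single-exon genes 39279 bases apart. Cldn6 (chr17:23679249-23682446, plus strand) and Cldn9 (chr17:23682584-23684026, minus strand) face each other with 137 bases between their ends. Ocln (chr13:100496507-100552718) and Marveld2 (chr13:100595957-100616971) lie on the minus strand 43238 bases apart. Cldn7 (chr11:69964779-69967885, plus strand), Tjp1 (chr7:65296165-65527781, minus strand) and F11r (chr1:171437535-171464603, plus strand) stand alone. All 9 are protein-coding, and only Cldn3 shares exon bases with another gene, Wbscr25 on the opposite strand, so its counts are uncertain where the exons overlap.

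Promoter windows were read from RefSeq sequences on GRCm38.p6, with 250 bases before and 50 after each transcript start, and 8 of the 9 genes matched, with 11 windows in all. They were searched on both strands for the E-box CAGGTG, the letters bound by the Snail and Zeb repressors of epithelial genes, for the Grainyhead-type motif AACNNGTT and for the GC box GGGCGG. The E-box was present in 9 of the 11 windows, against 20.2% of all 32851 promoter windows. It was present in 7 of the 8 genes, for which no share over all genes was taken. The windows of Marveld2 overlap each other and share an E-box, as do those of Ocln, so sites there are counted more than once. The GC box was present in 10 of the 11 windows, against 35.7% of all windows, and the Grainyhead-type motif in 0 of 11, against 4.204%. The windows had a median GC content of 60.7%, against 52.7% for all windows, and a match is no evidence of binding. Shown here are the windows of Cldn6, Cldn4 and Ocln and both windows of Cldn7, genes that differed between lines, and that of Tjp1, which differed least among the expressed genes. The Cldn7 window at the annotated gene start and the Tjp1 window hold 0 E-boxes. The Tjp1 window lies inside the annotated gene, whose start on the minus strand is at 65527781, so that start was not searched. Of 2 Ocln windows the one with 2 E-boxes is shown, the other having 1. Letters are given 5′ to 3′ with each E-box in capitals.
Cldn6 promoter, chr17:23679115-23679414, plus strand: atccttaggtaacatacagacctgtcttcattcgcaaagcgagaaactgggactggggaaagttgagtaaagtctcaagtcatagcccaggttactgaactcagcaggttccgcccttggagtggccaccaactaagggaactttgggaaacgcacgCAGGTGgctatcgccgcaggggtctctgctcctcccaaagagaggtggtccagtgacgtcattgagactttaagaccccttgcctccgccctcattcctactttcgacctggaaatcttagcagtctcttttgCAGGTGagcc
Cldn7 promoter, chr11:69964529-69964828, plus strand: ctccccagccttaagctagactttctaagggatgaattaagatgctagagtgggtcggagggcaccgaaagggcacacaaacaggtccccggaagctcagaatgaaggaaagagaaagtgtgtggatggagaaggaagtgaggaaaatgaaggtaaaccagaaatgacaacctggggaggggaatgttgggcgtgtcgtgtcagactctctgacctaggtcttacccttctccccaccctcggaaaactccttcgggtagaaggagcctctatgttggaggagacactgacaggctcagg
Cldn7 promoter, chr11:69965171-69965470, plus strand: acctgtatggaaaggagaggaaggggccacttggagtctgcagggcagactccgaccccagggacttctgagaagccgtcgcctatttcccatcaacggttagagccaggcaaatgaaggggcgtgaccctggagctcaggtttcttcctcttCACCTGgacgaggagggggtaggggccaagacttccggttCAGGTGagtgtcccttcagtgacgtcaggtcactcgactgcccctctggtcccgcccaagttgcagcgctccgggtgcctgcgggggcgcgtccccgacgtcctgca
Cldn4 promoter, chr5:134946885-134947184, minus strand: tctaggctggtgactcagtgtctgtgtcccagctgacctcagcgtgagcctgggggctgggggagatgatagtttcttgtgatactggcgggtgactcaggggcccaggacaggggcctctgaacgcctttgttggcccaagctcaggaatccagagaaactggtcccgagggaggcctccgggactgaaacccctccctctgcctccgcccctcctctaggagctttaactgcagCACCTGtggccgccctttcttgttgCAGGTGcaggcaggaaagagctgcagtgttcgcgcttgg
Ocln promoter, chr13:100552449-100552748, minus strand: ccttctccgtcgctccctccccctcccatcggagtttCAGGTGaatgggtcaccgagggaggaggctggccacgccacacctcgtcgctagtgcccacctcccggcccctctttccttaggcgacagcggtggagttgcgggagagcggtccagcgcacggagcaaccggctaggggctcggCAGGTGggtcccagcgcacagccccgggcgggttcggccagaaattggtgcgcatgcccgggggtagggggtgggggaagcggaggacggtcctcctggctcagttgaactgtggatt
Tjp1 promoter, chr7:65371195-65371494, minus strand: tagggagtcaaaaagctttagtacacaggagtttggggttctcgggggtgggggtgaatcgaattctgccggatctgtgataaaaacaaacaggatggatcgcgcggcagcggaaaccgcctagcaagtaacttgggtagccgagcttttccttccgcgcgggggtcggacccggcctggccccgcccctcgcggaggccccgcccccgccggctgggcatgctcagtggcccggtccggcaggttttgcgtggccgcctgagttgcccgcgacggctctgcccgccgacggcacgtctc

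Cldn3, Cldn4, Cldn6 and Cldn7 were highest in AFX6, and Cldn9 was low in every line. Cldn7 had 16.9 CPM in 5ar1, 10.5 in 5ar2, 504.0 in AFX6 but 17.7 in AF32, as CPM of the summed counts of a line's cells. AFX6 stood 28.5-fold above AF32, the next line in order (exact conditional 95% interval 27.8 to 29.3, for the counting error of reads only). The other 3 lines lay between 10.5 and 17.7 CPM. Cell by cell, Cldn7 ranged from 0.821 to 1389 CPM in AFX6 with a median of 488, and 64 of 66 cells (97.0%, exact Clopper-Pearson 95% interval 89.5 to 99.6) had at least 5 CPM. The same limit was reached by 21 of 90 5ar1 cells (23.3%, 15.1 to 33.4), 16 of 90 5ar2 cells (17.8%, 10.5 to 27.3) and 11 of 80 AF32 cells (13.8%, 7.07 to 23.3). The range of CPM in AFX6 cells overlapped that of each other line, which held single cells with up to 425 CPM in 5ar1, 213 in 5ar2 and 458 in AF32.

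Cldn6 had 98.8 CPM in 5ar1, 95.5 in 5ar2, 502 in AFX6 but 83.6 in AF32. AFX6 was 6.01-fold above AF32 (5.94 to 6.08) and 5.08-fold above 5ar1 (5.03 to 5.14), and the other 3 lines lay close together in summed level. They did not lie together in the share of cells, which was 65.6% in 5ar1 (54.8 to 75.3), 77.8% in 5ar2 (67.8 to 85.9) and 35.0% in AF32 (24.7 to 46.5), against 90.9% in AFX6 (81.3 to 96.6). AF32 thus had a summed level like that of the FS lines in fewer cells, and its median cell had 0.928 CPM against 39.8 in 5ar1, 54.4 in 5ar2 and 463 in AFX6. The highest cells reached 1324 CPM in 5ar1, 651 in 5ar2, 1602 in AFX6 but 871 in AF32.

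Cldn3 and Cldn4, which neighbour each other, were lower. Cldn3 had 13.7 CPM in 5ar1, 10.9 in 5ar2, 39.6 in AFX6 but 11.2 in AF32, and was at 5 CPM or more in 36.7, 38.9, 51.5 and 20.0% of cells in that order. Its 3.54-fold difference between AFX6 and AF32 (3.42 to 3.67) includes 1 AFX6 cell with 932 CPM. Without that cell AFX6 had 26.3 CPM of Cldn3, 2.349-fold above AF32 and 1.917-fold above 5ar1, the next line in order. Cldn4 had 4.31, 3.11, 13.2 and 2.369 CPM and was at 5 CPM or more in 5 of 90, 8 of 90, 12 of 66 and 7 of 80 cells. A single 5ar1 cell with 362 CPM carried most of the 5ar1 level of Cldn4, which was 1.2 CPM without the 5 5ar1 cells with few detected genes. Cldn9 was near the limit of detection, with 0.945, 0.819, 0.827 and 1.06 CPM, and only 1 to 3 cells of a line reached 5 CPM although its neighbour Cldn6 was high.

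**Figure D1:**
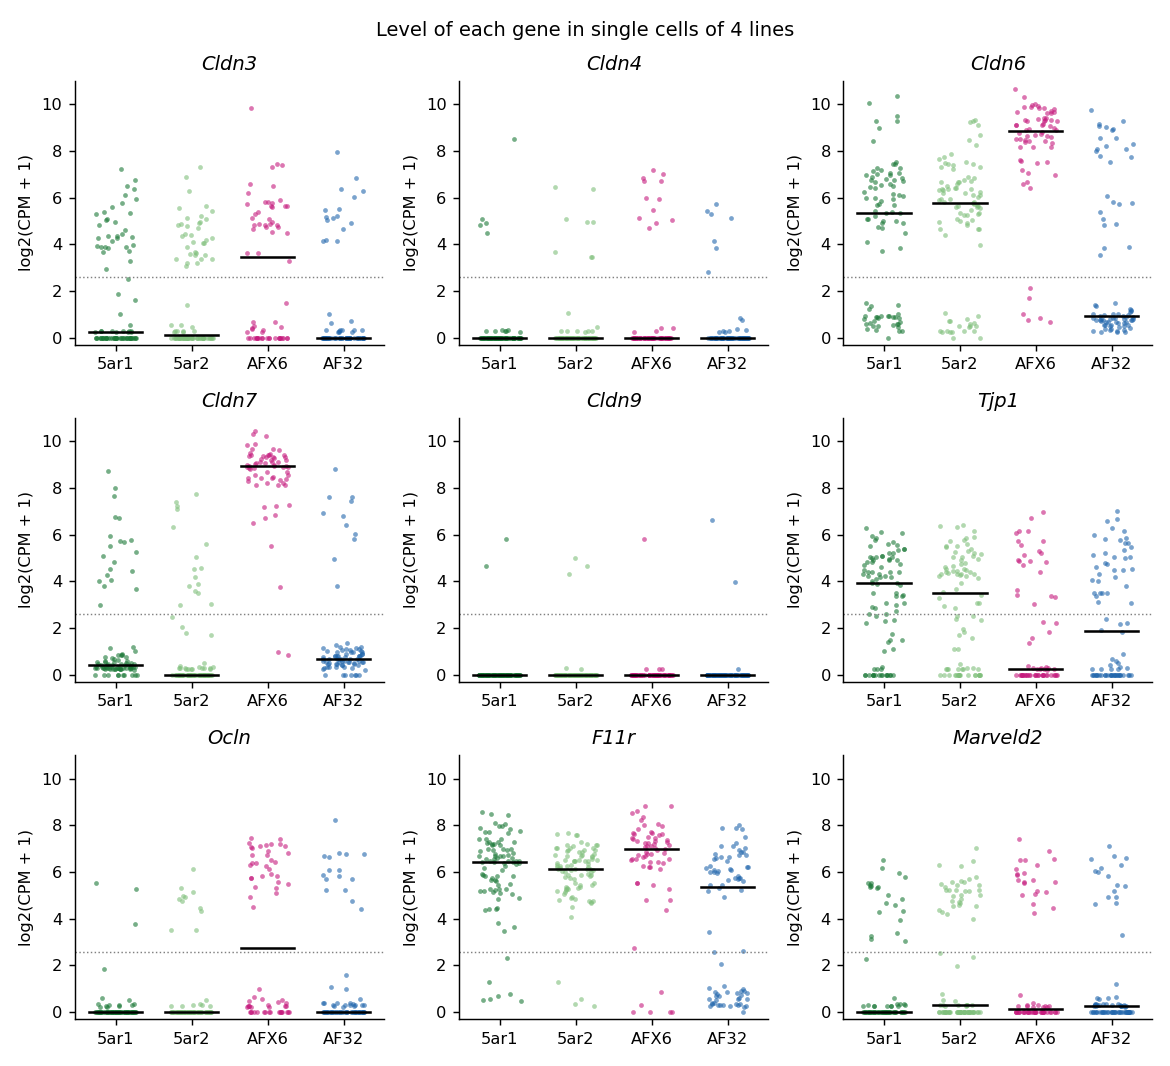
Each point is a kept cell (66 of AFX6, 80 of AF32 and 90 of each FS line), the y axis is log2(CPM + 1), black bars are medians and the dotted line marks 5 CPM. Cldn6 and Cldn7 of AFX6 form a high band with medians of 463 and 488 CPM, while AF32 cells lie mostly under the dotted line.

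Values above 0 but under 5 CPM were common for Cldn6 and Cldn7 outside AFX6. Such values were found for Cldn7 in 59 of 90 5ar1, 19 of 90 5ar2 and 62 of 80 AF32 cells, and for Cldn6 in 52 of 80 AF32 cells. The mean summed level of 4 Y-linked genes (Ddx3y, Eif2s3y, Uty and Kdm5d) was 0.569 CPM in AFX6, against 182 in 5ar1, 153 in 5ar2 and 254 in AF32. AFX6 thus differed from each other line in these genes too, and the part of this in the junction genes was not tested. The AFX6 level was 0.290% of the mean of the other lines. The same share of the mean level of Cldn7 in the other 3 lines would be 0.509 CPM in AF32, where the median cell had 0.610 CPM, and 0.673 CPM of Cldn6, where the median cell had 0.928 CPM. For Cldn7 this level would be 0.510 CPM in 5ar1, where the median cell had 0.348 CPM. In 5ar2 it would be 0.517 CPM, but the median was 0 CPM and 55 of 90 cells had 0 counts. The part of such a carried-over level in these values was not tested, and shares of cells are given from 5 CPM.

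Tjp1, the scaffold gene, had the flattest pattern of the 8 genes with at least 5 CPM in a line. It had 18.3 CPM in 5ar1, 17.7 in 5ar2, 17.0 in AF32 and 13.9 in AFX6, and AFX6 was 0.815 times AF32 (0.784 to 0.847). Its share of cells was highest in 5ar1 (65.6%, 54.8 to 75.3) and 5ar2 (56.7%, 45.8 to 67.1) and lower in AF32 (45.0%, 33.8 to 56.5) and AFX6 (33.3%, 22.2 to 46.0). AFX6 thus had the lowest level of the scaffold gene and the highest of Cldn3, Cldn4, Cldn6 and Cldn7.

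Occludin was low in both FS lines and higher in both EpiSC lines. Ocln had 0.956 CPM in 5ar1 and 3.30 in 5ar2, against 14.7 in AF32 and 47.1 in AFX6, and both FS lines lay under both EpiSC lines. It reached 5 CPM in 3 of 90 5ar1 cells (3.33%, 0.693 to 9.43), 11 of 90 5ar2 cells (12.2%, 6.262 to 20.8), 33 of 66 AFX6 cells (50.0%, 37.4 to 62.6) and 16 of 80 AF32 cells (20.0%, 11.9 to 30.4). AFX6 was 3.20-fold above AF32 (3.10 to 3.30), and 5ar2 3.45-fold above 5ar1. Marveld2, its neighbour on the same strand, had 9.00, 15.4, 20.0 and 12.4 CPM in 5ar1, 5ar2, AFX6 and AF32, and its shares of 24.4, 36.7, 33.3 and 21.2% had overlapping intervals.

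F11r was the most broadly detected of the 9 genes in 5ar1, 5ar2 and AF32, but in AFX6 Cldn7 reached 5 CPM in more cells. F11r had 98.6 CPM in 5ar1, 76.7 in 5ar2, 142 in AFX6 but 51.5 in AF32. It reached 5 CPM in 92.2% (84.6 to 96.8), 95.6% (89.0 to 98.8) and 90.9% (81.3 to 96.6) of the cells of the first 3 lines and in 57.5% (45.9 to 68.5) of AF32 cells. A further 33 of the 80 AF32 cells had F11r above 0 and under 5 CPM.

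**Figure D2:**
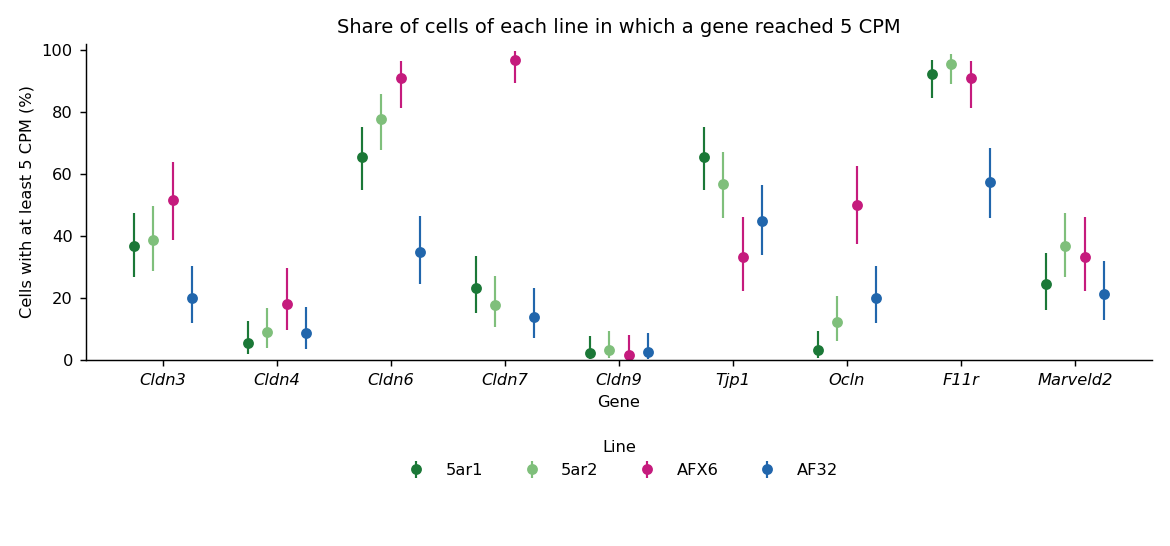
The y axis is the percentage of a line's kept cells with at least 5 CPM, and bars are exact Clopper-Pearson 95% intervals for counting error only. AF32 has the lowest share for Cldn3, Cldn6, Cldn7, F11r and Marveld2, and AFX6 has the highest for Cldn3, Cldn4, Cldn6, Cldn7 and Ocln.

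Per kilobase of exon, which allows genes to be compared with each other, the level in AFX6 was 292 CPM per kb for Cldn6 and 259 for Cldn7, followed by 53.4 for F11r, 31.5 for Cldn3, 11.2 for Ocln, 7.26 for Cldn4, 5.91 for Marveld2, 1.777 for Tjp1 and 0.573 for Cldn9. In AF32 the order began with Cldn6 at 48.6 CPM per kb and F11r at 19.3, and Cldn7 was at 9.07. In the FS lines the order also began with Cldn6 (57.4 in 5ar1 and 55.5 in 5ar2) and F11r (37.0 and 28.8). A cell of AFX6 had a median of 5 of the 9 genes at 5 CPM or more, against 3 in 5ar1, 3 in 5ar2 and 2 in AF32, and the number ranged from 0 to 8. None of the 9 reached 5 CPM in 12 of 80 AF32 cells, 1 of 90 5ar1 cells and no cell of the other lines.

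FS cells were compared with EpiSCs with lines as replicates, 2 against 2, by edgeR's quasi-likelihood test on summed counts with Benjamini-Hochberg adjustment. The question was which junction genes differ between the formative and the primed state, but both FS lines grew in AloXR and neither EpiSC line did, so state and medium cannot be told apart. The test called 0 of the 9 genes at an adjusted p under 0.05 with a change of over 1.4 on the log2 scale either way, and 0 of 22606 genes tested in all (0%). At an unadjusted p under 0.05 it found 1 of the 9, Ocln, against 3636 of 22606 genes (16.1%), of which 7.02% of genes tested were lower and 9.06% higher in FS cells. Ocln had 2.129 ± 1.659 CPM in FS lines and 30.9 ± 22.9 in EpiSC lines (SD, n = 2 lines each), with a log2 fold change of -3.87 ± 0.98 (SE, unadjusted p = 0.0147, adjusted p = 0.194). DESeq2 called Ocln (log2 fold change -3.90, adjusted p = 7.43e-05) and no other of the 9, where it called 3.22% of genes as lower in FS cells.

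The claudins had wide errors, and their AFX6 and AF32 levels lay far apart. Cldn7 had a log2 fold change of -4.28 ± 1.7 (SE, adjusted p = 0.329), Cldn6 of -1.62 ± 0.89 (adjusted p = 0.489), Cldn4 of -1.09 ± 0.93 (adjusted p = 0.685) and Cldn3 of -1.07 ± 0.68 (adjusted p = 0.564). Without AFX6 the values were -0.35 ± 0.42 for Cldn7, 0.23 ± 0.18 for Cldn6, 0.66 ± 0.55 for Cldn4 and 0.15 ± 0.33 for Cldn3. The sign thus turned for the last 3, but AF32 is then the only EpiSC line, and these errors rest on the spread of the FS lines alone and assume that EpiSC lines vary as much. Without AFX6 the value of Ocln was -2.77 ± 0.88 and that of F11r turned from -0.16 ± 0.55 to 0.78 ± 0.25. The values of Marveld2, Tjp1 and Cldn9 were -0.42 ± 0.45, 0.22 ± 0.27 and -0.10 ± 0.71. The median over the 9 genes was -1.07, and over all genes tested -0.01.

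In level, lines of the groups did not overlap for Ocln and Cldn7, with FS cells lower, and for Tjp1, with FS cells higher. Of all genes tested, 21.5% had FS lines lower without overlap and 26.8% higher, so 2 of 9 is close to the background and 1 of 9 is under it. For Cldn7 the gap was that of 17.7 CPM in AF32 and 16.9 CPM in 5ar1.

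**Figure D3:**
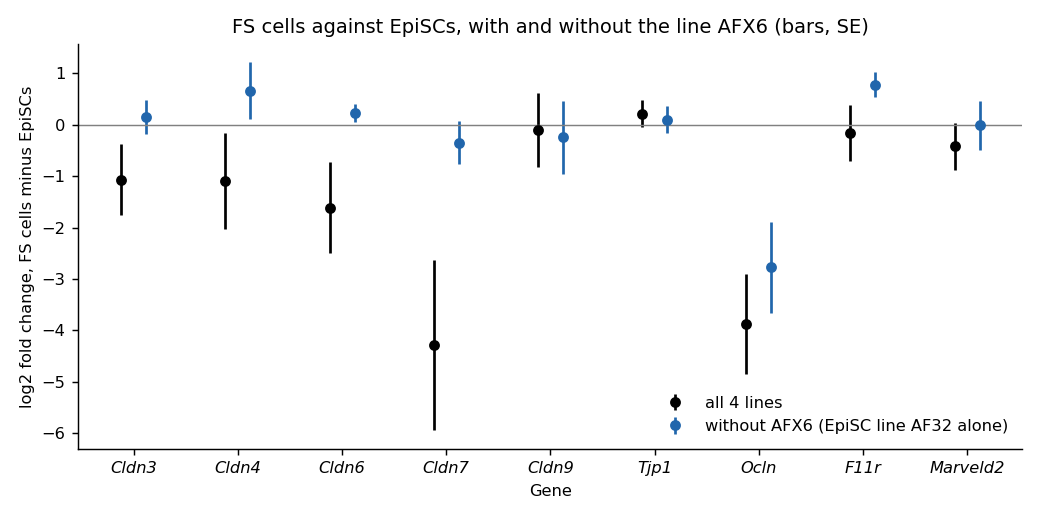
The y axis is the log2 fold change of FS cells minus EpiSCs from edgeR with its SE, for all 4 lines (black) and without AFX6 (blue). Cldn3, Cldn4 and Cldn6 move from -1.07, -1.09 and -1.62 to small positive values without AFX6, and Ocln moves from -3.87 to -2.77. Bars without AFX6 rest on the spread of the FS lines alone.

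The EpiSC lines, which differ in XAV939 as well as in line, were set side by side without a test. Over 2-fold higher in AFX6 than in AF32 were 6 of the 9 genes, namely Cldn7, Cldn6, Cldn4 (5.57-fold, 5.17 to 6.00), Cldn3, Ocln and F11r (2.8-fold, 2.714 to 2.808). Each but F11r was also over 2-fold above both FS lines, for Cldn3 through the 1 cell named above. The share of all genes over 2-fold higher in AFX6 than in each other line was not counted, so no background stands beside these genes. In summed counts Cldn4 reached 5 CPM only in AFX6, and Ocln only in AFX6 and AF32. For a count against the background, genes were thus chosen by at least 5 CPM in an FS line, which neither compared line decides. Of the 6 genes chosen so, 4 were over 2-fold higher in AFX6, against 7.28% of 10744 such genes, and 0 were over 2-fold higher in AF32, against 12%. The median log2 ratio of AFX6 to AF32 over the 6 was 1.645, and over the 10744 genes -0.11. The FS lines, which share a medium, were over 2-fold apart for 1 of the 8 genes with at least 5 CPM in a line, Ocln, against 7.77% of such genes.

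Total counts per cell had a median of 5069883 in AFX6 and 4401633 in AF32, and the medians of detected genes were 10328 and 10330. Across the 80 AF32 cells the level of Cldn7 and the total count of a cell had a Spearman rho of -0.46, as a description, and across the 66 AFX6 cells 0.17. In AF32 the genes of chromosome 11, where Cldn7 lies, were raised over 1.2-fold relative to other autosomes in 66 of 80 cells, of which 8 had Cldn7 at 5 CPM or more, against 3 of the other 14. The part of depth and of chromosome level in the pattern of Cldn7 was not tested.

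Other genes of epithelial junctions and their regulators were read from 8 lists of 90 genes, of which 81 had a row and 75 were tested. None of the 75 was called by edgeR, 5 were higher and 6 lower in FS cells at an unadjusted p under 0.05, and 8 and 25 had lines that did not overlap in those directions. Of all genes tested, 9.06 and 7.02% passed that p and 26.8 and 21.5% did not overlap, so both counts of higher genes were smaller shares than the background, the 6 lower genes were close to it and the 25 were a larger share. The median log2 fold change over the 75 was -0.52. Between the EpiSC lines, 19 of the 52 with at least 5 CPM in an FS line were over 2-fold higher in AFX6 and 10 over 2-fold higher in AF32, set beside the 7.28 and 12% of all genes at that level.

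The genes higher in AFX6 included 5 of 5 at that level in the list of EpCAM and the matriptase system, a network of membrane proteases and inhibitors that acts on EpCAM. St14, which encodes matriptase, had 11.3 CPM in 5ar1, 21.1 in 5ar2, 176 in AFX6 but 21.7 in AF32, an 8.08-fold difference between the EpiSC lines. Of the epithelial transcription and splicing factors 3 of 3 at that level were higher in AFX6, namely Grhl2, Elf3 and the splicing factor Esrp1, the last with 7.32, 15.9, 59.4 and 11.9 CPM in 5ar1, 5ar2, AFX6 and AF32. Of the polarity complexes, which set the apical and basal sides of a cell, 6 of 14 were over 2-fold higher in AFX6 and 3 in AF32. Crb3, the apical Crumbs protein of epithelia, had 14.4 CPM in 5ar1, 25.3 in 5ar2, 130 in AFX6 but 5.69 in AF32, a 22.9-fold difference. Llgl2 and Llgl1, basolateral polarity proteins, went opposite ways, with 153 and 30.1 CPM of Llgl2 and 61.0 and 203 CPM of Llgl1 in AFX6 and AF32.

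Scaffolds and plaque proteins were mostly flat, with 2 of 12 over 2-fold higher in AFX6 and 1 in AF32. The 2 were Cgn, which encodes cingulin (22.3 CPM in AFX6 and 11.1 in AF32), and Tjp3, and the 1 was Magi2 (12.8 and 26.2 CPM). Tjp3, which encodes ZO-3, had 3.13 CPM in 5ar1, 8.18 in 5ar2, 102 in AFX6 but 14.7 in AF32. Its log2 fold change between FS cells and EpiSCs was -3.39 ± 1.145 (SE, adjusted p = 0.276). Cgnl1, which encodes paracingulin, went the other way, with 61.3, 51.0, 33.5 and 17.8 CPM and a log2 fold change of 1.115 ± 0.39 (adjusted p = 0.292). Of the other claudins, Cldn11 had 3.97, 2.518, 28.7 and 5.06 CPM (log2 fold change -2.40 ± 0.96, adjusted p = 0.343), whereas Cldn12 lay between 29.0 and 37.2 CPM in the 4 lines. Of 23 genes on the list of other claudins, 16 had a row, and the others were not analysed here.

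Of the 9 tested JAM and tricellular membrane proteins, 3 had both FS lines above both EpiSC lines and 2 had them below, against 26.8 and 21.5% of all genes. Cxadr, a JAM-related receptor, had 33.6 CPM in 5ar1, 37.1 in 5ar2, 20.3 in AF32 and 14.3 in AFX6 (log2 fold change 1.03 ± 0.28, adjusted p = 0.207). In the same order of lines, Jam3 had 35.3, 34.9, 28.0 and 11.5 CPM, and Lsr, the angulin-1 gene of tricellular contacts, 145, 122, 109 and 83.3. Their log2 fold changes were 0.83 ± 0.47 and 0.47 ± 0.21 (adjusted p = 0.504 and 0.402). The 2 with FS lines lower were Marveld1, with 6.4 and 6.986 CPM in FS lines and 6.998 and 10.3 in AF32 and AFX6, and Ildr1, an angulin gene like Lsr. Ildr1 had 0.0093 CPM in 5ar1, 0.508 in 5ar2, 1.284 in AF32 and 14.4 in AFX6, with a log2 fold change of -4.94 (edgeR, adjusted p = 0.412; DESeq2, adjusted p = 0.0277).

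Of the cadherins and the EMT factors that bind the E-box, Cdh1 was over 2-fold higher in AFX6 than in AF32, and Cdh2, Zeb1 and Zeb2 were over 2-fold higher in AF32. Cdh1, E-cadherin, had 89.6 CPM in 5ar1, 54.2 in 5ar2, 171 in AFX6 but 21.9 in AF32, and was at 5 CPM or more in 58 of 66 AFX6 and 17 of 80 AF32 cells. Cdh2, N-cadherin, had 43.4, 36.6, 13.5 and 38.4 CPM, a 2.837-fold higher level in AF32 than in AFX6. Zeb1, a repressor of Cdh1, had 18.0, 14.7, 12.2 and 34.9 CPM, 2.857-fold higher in AF32. Zeb2 had 3.08 CPM in AFX6 and 17.5 in AF32. Of the 3 EMT factors with at least 5 CPM in an FS line, 2 were thus over 2-fold higher in AF32, against 12% of genes, and 0 in AFX6. The third, Snai1, had 5.56 CPM in 5ar1 and 7.784 in 5ar2, against 1.6 in AF32 and 1.2 in AFX6, with a log2 fold change of 2.244 ± 0.53 (SE, edgeR, unadjusted p = 0.0114, adjusted p = 0.19), and DESeq2 called it (adjusted p = 0.000352).

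**Figure D4:**
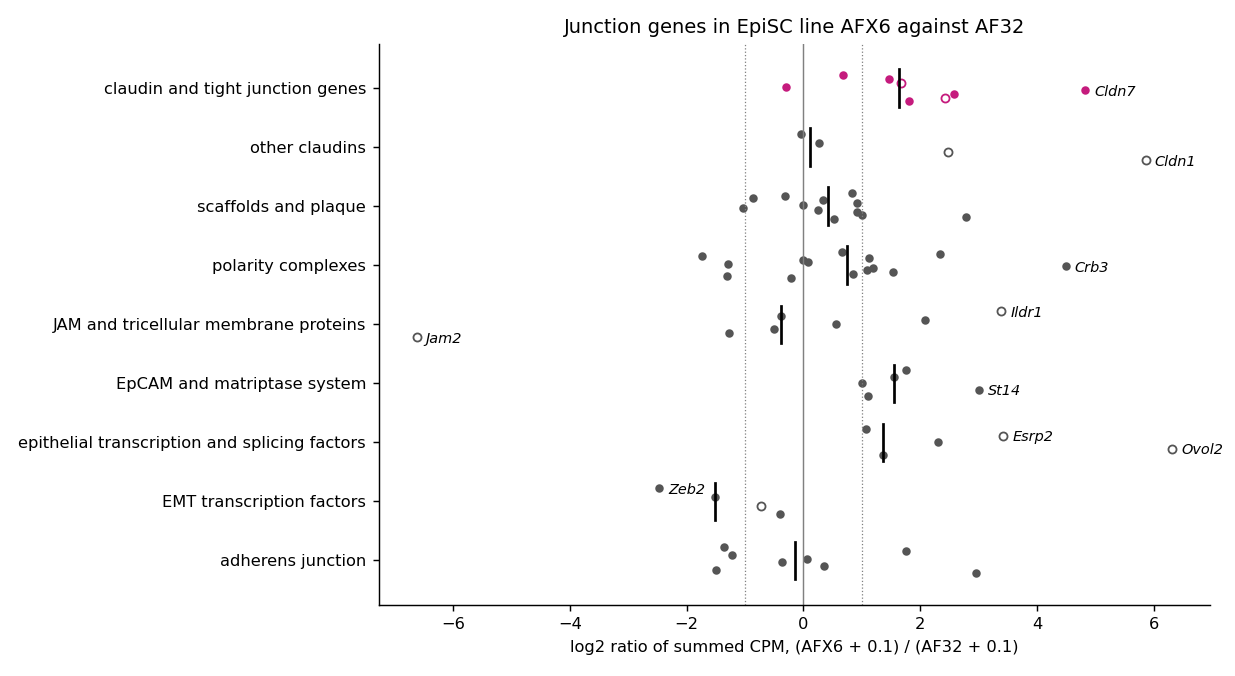
Each point is a gene with at least 5 CPM in an FS line (filled) or only in an EpiSC line (open), the x axis is the log2 ratio of summed CPM in AFX6 to AF32 with 0.1 CPM added to both, black bars are list medians of the filled points and dotted lines mark a 2-fold difference. Cldn7, Crb3 and St14 lie far to the right, and of the 4 EMT factors, all left of 0, Zeb1 and Zeb2 lie past the 2-fold line.

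The genes were then compared across single cells within lines, as Pearson's r of log2(CPM + 1) centred in each line over 326 cells. Cells of a line share culture and library preparation, so these values are descriptions. Over the 36 pairs the median r was 0.13, and 2 pairs had an r of at least 0.3, Cldn6 with Cldn7 (0.42) and Cldn6 with Ocln (0.30). The pair of Cldn6 and Cldn7 had an r of 0.58 in AF32, 0.51 in AFX6, 0.40 in 5ar1 and 0.23 in 5ar2. Cldn6 with Ocln gave 0.57 and Cldn7 with Ocln 0.58 in AF32, against 0.38 and 0.22 in AFX6, -0.10 and 0.19 in 5ar1 and 0.17 and 0.15 in 5ar2, and without AF32 these pairs fell to 0.17 and 0.16 over the other lines. With ranks in place of levels, which give more weight to the low values, Cldn6 and Cldn7 had a correlation of 0.21 within lines.

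In each line most cells with Cldn7 also had Cldn6. Cldn7 was at 5 CPM or more in 9 of the 28 AF32 cells with Cldn6 at that level and in 2 of the 52 others, and in AFX6, where 64 of 66 cells had Cldn7, all 60 cells with Cldn6 had it and 4 of 6 without. In 5ar1 17 of 59 cells with Cldn6 and 4 of 31 without it had Cldn7, and in 5ar2 15 of 70 and 1 of 20. Of the 9 AF32 cells with both claudins 7 also had Ocln, against 9 of the other 71. In AFX6 33 of 60 cells with both had Ocln, and 0 of the other 6. In AF32 46 of 80 cells had none of the 3 genes at 5 CPM, against 2 of 66 AFX6 cells.

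**Figure D5:**
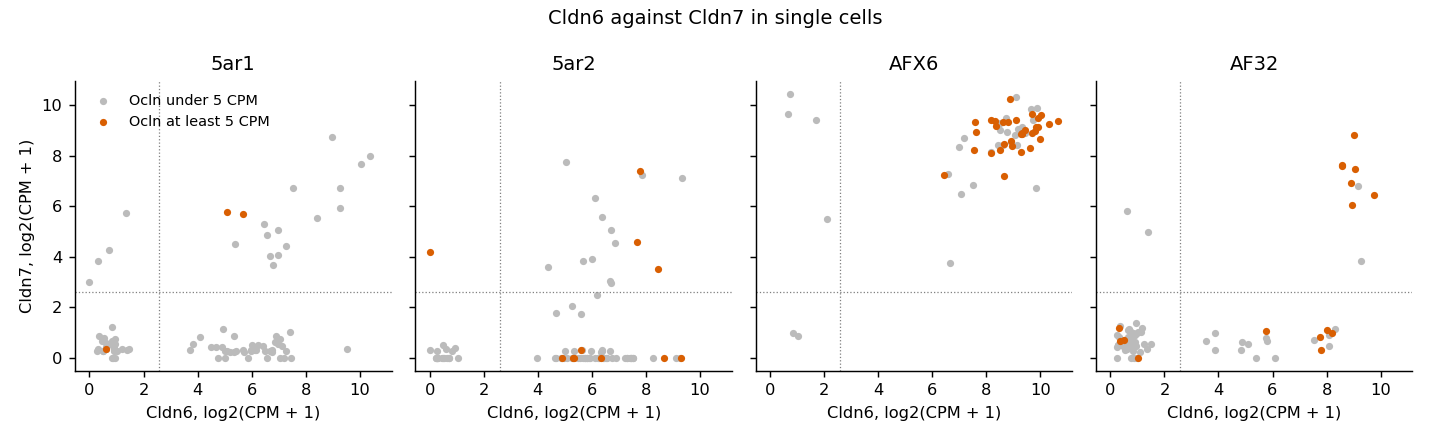
Each point is a kept cell, with log2(CPM + 1) of Cldn6 on the x axis and of Cldn7 on the y axis, orange where Ocln had at least 5 CPM, and dotted lines at 5 CPM. The 60 AFX6 cells with both claudins fill the upper right, and 7 of the 9 AF32 cells there have Ocln.

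The AF32 cells with Cldn7 were set beside AFX6 cells for genes that were high or low in AFX6, chosen after the values of these genes were seen. Of the 11 AF32 cells with Cldn7 at 5 CPM or more, 10 had at least 5 CPM of the 4 Y-linked genes together, against 0 of 66 AFX6 cells. None of the 11 had 5 CPM of Insig1 or Scd1, which had medians of 88.9 and 149 CPM in AFX6, and 1 of 11 had 5.52 CPM of Cthrc1, which had a median of 39.4 CPM there. Not all AFX6 cells had these genes, as 47 of 66 reached 5 CPM of Insig1, 50 of Scd1 and 48 of Cthrc1. The other AF32 cells and the FS lines were not set beside them, and the origin of the 11 cells was not tested.

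Neighbouring genes were compared in the same way. Cldn3 and Cldn4 had an r of 0.15, Cldn6 and Cldn9 of 0.06, and Ocln and Marveld2 of 0.18, which was 0.30 in AFX6, 0.26 in AF32, 0.026 in 5ar2 and 0.015 in 5ar1. Marveld2 was at 5 CPM or more in 16 of 33 AFX6 cells with Ocln and 6 of 33 without it, in 7 of 16 and 10 of 64 AF32 cells, in 4 of 11 and 29 of 79 5ar2 cells and in 1 of 3 and 21 of 87 5ar1 cells.

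Genes most like each of the 8 detected genes were sought among 10607 genes whose mean over the cells was 5 CPM or more, by the same within-line r over 326 cells. Cldn6 was most like Cdh1 (0.49), Cldn7 (0.42) and Rab25 (0.39), a small GTPase of epithelial membrane recycling. Cldn7 was most like Rab25 (0.49), Cldn6 and Crb3 (0.41). Cldn4 was most like Sfn (0.39), which encodes the epithelial 14-3-3 sigma, Ap1m2 (0.34), an epithelial clathrin adaptor, and Ahnak (0.32). Ocln was most like Retreg1 (0.32) and Cldn6 (0.30), and F11r most like Foxh1 (0.38), a partner of Smad proteins, Nmt1 (0.37) and Vcp (0.33). For Cldn3, Tjp1 and Marveld2 no gene reached an r of 0.3, and the highest were 0.26 with Esrp1, 0.27 with Stk16 and 0.24 with Wdr1.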

How the data were processed

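The data were Smart-seq2 single-cell RNA sequencing of 384 mouse cells, sorted by flow cytometry with 1 cell per well. The authors deposited raw counts of uniquely mapped reads, made with STAR 2.7.3a and featureCounts 2.0.0 on GRCm38.p6 per the labels and methods. They also deposited sctransform values, a depth-corrected score, used here only as an alternative. Alignment and counting were not repeated. Line and state came from the labels, media from the labels and methods. The genes, lists and tests were chosen with earlier results of these data known.

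Cells with at least 3000000 counts were kept (326), no doublet caller was run, and 0 groups of cells had identical counts. The kept cells of a line were summed to 1 column of counts, and the 4 columns went into edgeR 4.0.16 in R 4.3.3 (quasi-likelihood test after filterByExpr and TMM). The fit was first run on simulated data with a smaller spread between columns than these lines had, where the common dispersion was 0.653. That run thus does not show how many true changes the fit would find here. An adjusted p under 0.05 with an absolute log2 fold change over 1.4 made a call. The p-values measure the spread between 2 lines per state. Alternatives were DESeq2 1.42.0, limma 3.58.1 on log2(mean CPM + 1), DESeq2 size factors in edgeR, no filter, other depth limits, thinning to 1000000 counts and each line left out. Lines were otherwise compared by folds of summed counts. For the background of AFX6 against AF32, genes were chosen by their level in the FS lines, a filter added after seeing the data. For 5ar1 against 5ar2 they were chosen by their level in any line, the compared lines included. Intervals (95%, scipy 1.17.1) cover counting error only, that of cells for shares and that of reads for folds. Smart-seq2 reads carry no molecular identifiers and can be copies of 1 molecule. The intervals of folds thus do not cover the counting error of molecules.

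All 9 genes are named. From the lists, genes with at least 20 CPM in a line were named, the 4 largest log2 fold changes each way among genes whose lines did not overlap and the 3 largest folds each way between AFX6 and AF32, with the 3 most correlated genes from an r of 0.3. Esrp1, Grhl2, Elf3, Snai1, Ildr1, Marveld1, Cldn12, Cgn, Magi2, Zeb2, Stk16, Wdr1, the Y-linked genes, Insig1, Scd1 and Cthrc1 were added after their values were seen. So were Nectin1, Nectin2 and Nectin3. Gene positions and exon lengths are from GENCODE M21, a different annotation from the authors', and promoters from RefSeq. Per-chromosome ratios used 6901 protein-coding genes with values capped at 3 times a gene's mean.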

Additional observations from a re-analysis of the deposited data

How the results depend on the processing

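Among the alternatives run for the test between FS cells and EpiSCs, DESeq2 was the only one that changed the counts of calls from 0, to 1432 genes, of which 1 was among the 9 and 9 were on all junction lists together, or to 2450, 1 and 13 with the adjusted p alone. The same counts were 0 in each fit that left out a line. The 9 list genes called by DESeq2 included Cldn5, whose levels were at most 1.5 CPM. Genes whose lines did not overlap numbered 3 of the 9 with all lines, 2 to 4 under other depths and values, and 4 to 8 when a line was left out, where fewer lines make overlap less likely. With each line left out, the log2 fold change ranged from -1.72 to 0.15 for Cldn3, from -1.86 to 0.66 for Cldn4, from -2.40 to 0.23 for Cldn6, from -0.73 to 0.78 for F11r and from -0.25 to 0.059 for Cldn9. The high ends came without AFX6, except for Cldn9, where it came without AF32, and F11r was at 0.00113 without 5ar2. The direction also turned for Cldn9 with depth limits of 1000000 (0.046) and 4000000 counts (0.69) and for F11r in limma (0.048). Without cells with few detected genes, an alternative added after seeing the data, Cldn4 moved from -1.09 to -1.95, and with a limit of 4000000 counts to -2.61. Of 180 shares of cells under other limits of level or depth, 5 left the interval of the share as reported. The 6 genes over 2-fold higher in AFX6 than in AF32 and the 5 over 2-fold above each other line were as many under other depths and values, and 6 and 4 without the AFX6 cell highest in a gene, where Cldn3 fell to 1.917-fold above 5ar1. Among genes with at least 5 CPM in an FS line they were 4 and 3, since Cldn4 and Ocln do not reach that level there, both alternatives being added after seeing the data. No share over all genes was counted for those above each other line. No paired analysis was possible because cell numbers only count the cells of separate lines, and lines carry no numbers that pair them. Values near 1 CPM, those of Cldn9 in each line and of Ocln in 5ar1, rest on 1 to 3 cells at 5 CPM or more.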
